A study of Arabidopsis thaliana with 104 samples.

Results

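The genes described here are 31 genes of iron uptake, iron transport and the network around FIT in Arabidopsis thaliana, followed across the 12 groups of a study of phosphate (Pi) supply and root bacteria. They were chosen by function and picked out by locus identifier from the 27206 loci of the deposited count table. The rule uses no measured value, although earlier results of these data were known when the list was drawn up. All 31 were among the 18926 genes that passed the filter on low counts. Polyadenylated RNA of whole seedlings was sequenced. The genotypes were the laboratory accession Col-0, the mutant phr1 and the double mutant phr1 phl1, mutated in PHR1 or in both PHR1 and PHL1, transcription factors of the Pi starvation response. The labels do not give the mutant alleles. All seedlings grew for 7 days on medium with 1 mM Pi and 0.5% sucrose and then for 12 days without sucrose on 625 µM Pi (high) or 50 µM Pi (low). The second medium held either no bacteria or a bacterial synthetic community (SynCom), under 9 h of light and 15 h of dark. The labels name 5 experiments (A to E), each with 2 libraries of every group it held, and phr1 phl1 was grown in C, D and E. Each Col-0 and phr1 group therefore held 10 libraries and each phr1 phl1 group 6. The comparisons ask how Pi supply, SynCom and loss of the PHR1 proteins alter RNA levels of the iron genes.

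Arabidopsis takes up iron by reduction: the root surface is acidified by proton pumps, ferric iron is reduced by FRO2, and ferrous iron enters epidermal cells through IRT1. FIT, a bHLH transcription factor, switches on FRO2 and IRT1 together with partner bHLH proteins of subgroup Ib. Upstream of them act the bHLH proteins of subgroup IVc and BHLH121, which the ubiquitin ligase BTS holds in check by marking some of them for breakdown. Inside the plant iron moves as a complex with citrate in the xylem and with nicotianamine in the phloem, and excess metal is stored in the vacuole. Pi and iron are linked in the soil and in the plant because they precipitate together, and roots on low Pi are known to hold more iron.

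The median library held 4335782 counts, the smallest 955174 and the largest 9550846. Levels are CPM, counts scaled to a common library total and composition and not for gene length, so they compare groups for 1 gene and not genes with each other. Folds are log2 fold changes ± standard error from edgeR's quasi-likelihood test with experiment as a covariate. A member is said to have risen or fallen where the Benjamini-Hochberg adjusted p over all genes tested was under 0.05. The 2 libraries of a group and experiment entered as independent, and nothing in the labels says which seedlings they pooled, so the p-values measure the spread between these libraries. In RNA of whole seedlings, fewer cells of a type and less RNA per cell cannot be told apart.

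The targeted genes were looked at first. PHR1 ranged from 43.8 to 86.6 CPM in the Col-0 groups, from 19.8 to 53.8 CPM in phr1 and from 20.6 to 56.9 CPM in phr1 phl1, so the ranges overlap. On low Pi with SynCom it was lower in phr1 than in Col-0 by a log2 fold of -0.72 (adjusted p = 4.16e-07). PHL1 ranged from 6.66 to 22.8 CPM in Col-0 and from 42.0 to 972 CPM in phr1 phl1. PHL1 RNA was thus higher in the double mutant, so its level does not check that label: counts per gene do not show whether the reads lie outside a disrupted part. The Pi starvation genes SPX1 and IPS1 rose in Col-0 on low Pi with SynCom by 5.75 and 10.44 on the log2 scale, with adjusted p of 5.55e-32 and 5.94e-28. In the table, 4 libraries stood apart, by fewer than 1000000 counts or by a residual SD over 0.65 on the log2 scale. They were 1 each of phr1 on high Pi without bacteria (experiment D), phr1 phl1 on high Pi without bacteria (D), Col-0 on low Pi with SynCom (D) and phr1 phl1 on low Pi without bacteria (E). In the Col-0 library of these, photosynthesis markers summed to 2096 CPM against a group median of 38720 CPM. Without these 4 libraries 15 of the 166 calls of single members were lost, and these are given with the genes.

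The largest differences in the uptake genes lay between experiments rather than between conditions. Over the 16 Col-0 and phr1 libraries of each experiment, IRT1 (AT4G19690), the main root transporter for ferrous iron, had medians of 19.5 CPM in A, 45.3 in B and 46.7 in E. In C and D its medians were 1.63 and 1.28 CPM. The highest of these medians was 36.5 times the lowest. FRO2 (AT1G01580), the ferric reductase of the root surface, followed the same order, with 19.4, 41.7 and 50.5 CPM in A, B and E and 1.33 and 1.14 CPM in C and D. FIT (AT2G28160) had medians of 17 (5.35 to 32.9), 22.7 (10.6 to 39.3) and 20.5 (8.55 to 35.5) CPM in A, B and E, with the lowest and highest library in parentheses. In C and D its medians were 2.56 (0.566 to 5.57) and 2.68 (0.680 to 5.47) CPM, so that the libraries of C and D did not overlap with those of B or E. Of the 31 members, 18 had medians in C and D below those in A, B and E, and 15 differed more than 3-fold between the highest and lowest experiment. ILR3 (AT5G54680), a bHLH protein of subgroup IVc, differed by only 1.21-fold between experiments, and BHLH121 (AT3G19860) by 1.72-fold. The summed root hair markers moved in the same way, with medians of 70.6, 127 and 87.1 CPM in A, B and E and 4.54 and 5.41 CPM in C and D. The summed endodermis markers had medians of 120.8, 154 and 90.0 CPM in A, B and E and 36.8 and 43.2 CPM in C and D. The photosynthesis markers ran from 53050 to 65460 CPM. The part of these markers in the difference between experiments was not tested. Since phr1 phl1 was grown in C, D and E alone, its medians cannot be read against medians of Col-0 or phr1 over 5 experiments. Genotypes are compared by the fit, which holds experiment as a term, and by values within C, D and E.

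**Figure D1:**
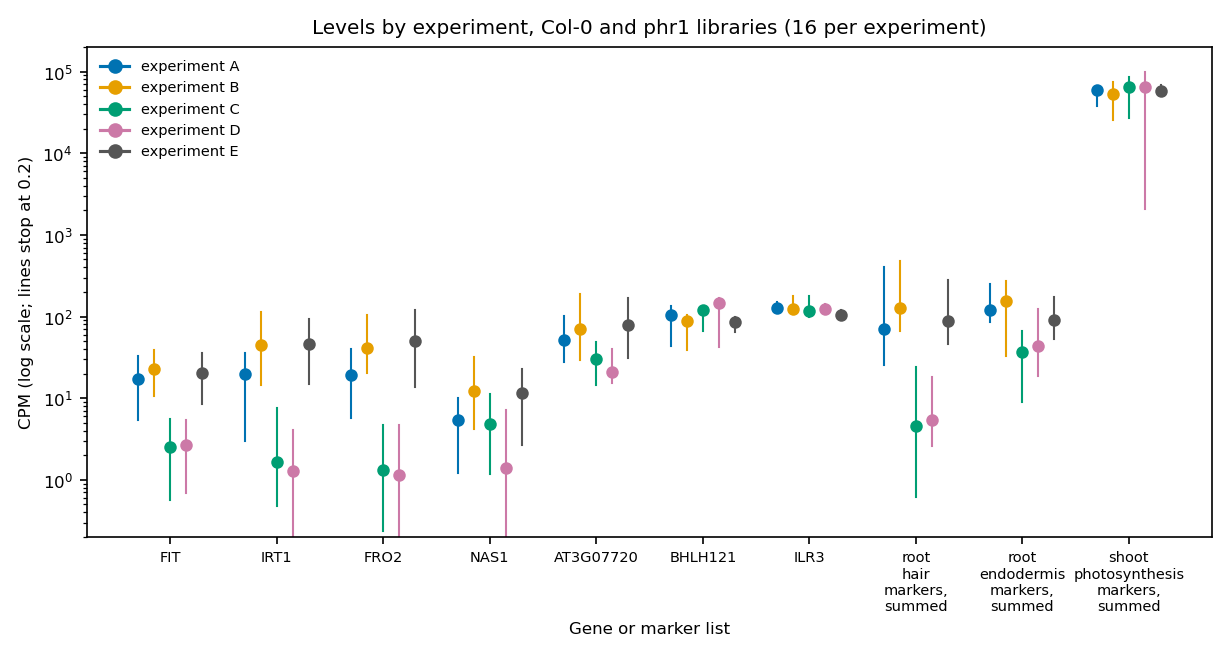
Levels of member genes and of summed marker lists in each experiment, over the 16 Col-0 and phr1 libraries of each. The vertical axis is CPM on a log scale, points are medians and lines run from the lowest to the highest library. IRT1 and FRO2 had medians between 1.14 and 1.63 CPM in experiments C and D and between 19.4 and 50.5 CPM in A, B and E, and the root hair markers were split in the same way.

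Members were called for Pi supply when SynCom was present. On low against high Pi with SynCom, 5 of 31 members rose and 7 fell in Col-0, beside 27.2% of all genes tested that rose and 22.2% that fell. In phr1, 10 members rose and 2 fell, against 13% and 10.8% of all genes, and phr1 phl1 gave the same counts of members against 10.4% and 8.87%. For Col-0 the median fold over the 31 members was 0.06, beside 0.05 over all genes. The medians were 0.13 beside 0.02 for phr1 and 0.43 beside 0.01 for phr1 phl1. The share of members that rose was thus below that of all genes in Col-0 and above it in both mutants. Without bacteria, edgeR called 0 members in each genotype, with 0.0106% of all genes called in Col-0 and 0% in phr1 and phr1 phl1. There, 2 members in each genotype had an unadjusted p under 0.05 (NAS3 and AT3G07720 in Col-0, NAS2 and AT3G07720 in phr1, IRT1 and AT3G07720 in phr1 phl1), and DESeq2 called none. At the same cut stood 1.69%, 5.18% and 5.61% of all genes in the 3 genotypes. With SynCom, the summed photosynthesis markers had medians of 70400 CPM on high and 38720 CPM on low Pi in Col-0. They were 63420 and 40840 CPM in phr1 and 69090 and 47370 CPM in phr1 phl1. The root hair sums were 87.1 and 181, 76.7 and 95.1, and 3.62 and 4.02 CPM in the 3 genotypes. The endodermis sums were 55.1 and 95.9, 65.0 and 52.4, and 18.65 and 19.6 CPM. The part of these shifts in the Pi and SynCom calls was not tested.

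More members were called for SynCom on low than on high Pi, as were more genes of the whole table. On high Pi, SynCom raised 1 member and lowered 3 in Col-0, where 1.11% of all genes rose and 2.55% fell. It raised 1 and lowered 7 in phr1 (2.38% and 2.28% of all genes) and raised 2 and lowered 2 in phr1 phl1 (0.629% and 1.62%). On low Pi, 7 members rose and 10 fell in Col-0, where 23.8% of all genes rose and 19.4% fell. In phr1, 7 rose and 5 fell (14.4% and 11.7% of all genes), and in phr1 phl1 12 rose and 3 fell (8.06% and 5.58%). The median member fold on low Pi was -0.08, -0.01 and 0.33 in the 3 genotypes, beside 0.05, 0.01 and 0.01 over all genes. The effect of Pi differed with SynCom, by the interaction test, for 6 members in Col-0, 2 of them toward higher and 4 toward lower values (15.4% and 13.7% of all genes). It differed for 4 in phr1, 3 higher and 1 lower (3.51% and 2%), and for 3 in phr1 phl1, all higher (2.38%, with 1.81% lower). These comparisons share libraries: the groups on low Pi with SynCom enter both the Pi and the SynCom comparison.

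**Figure D2:**
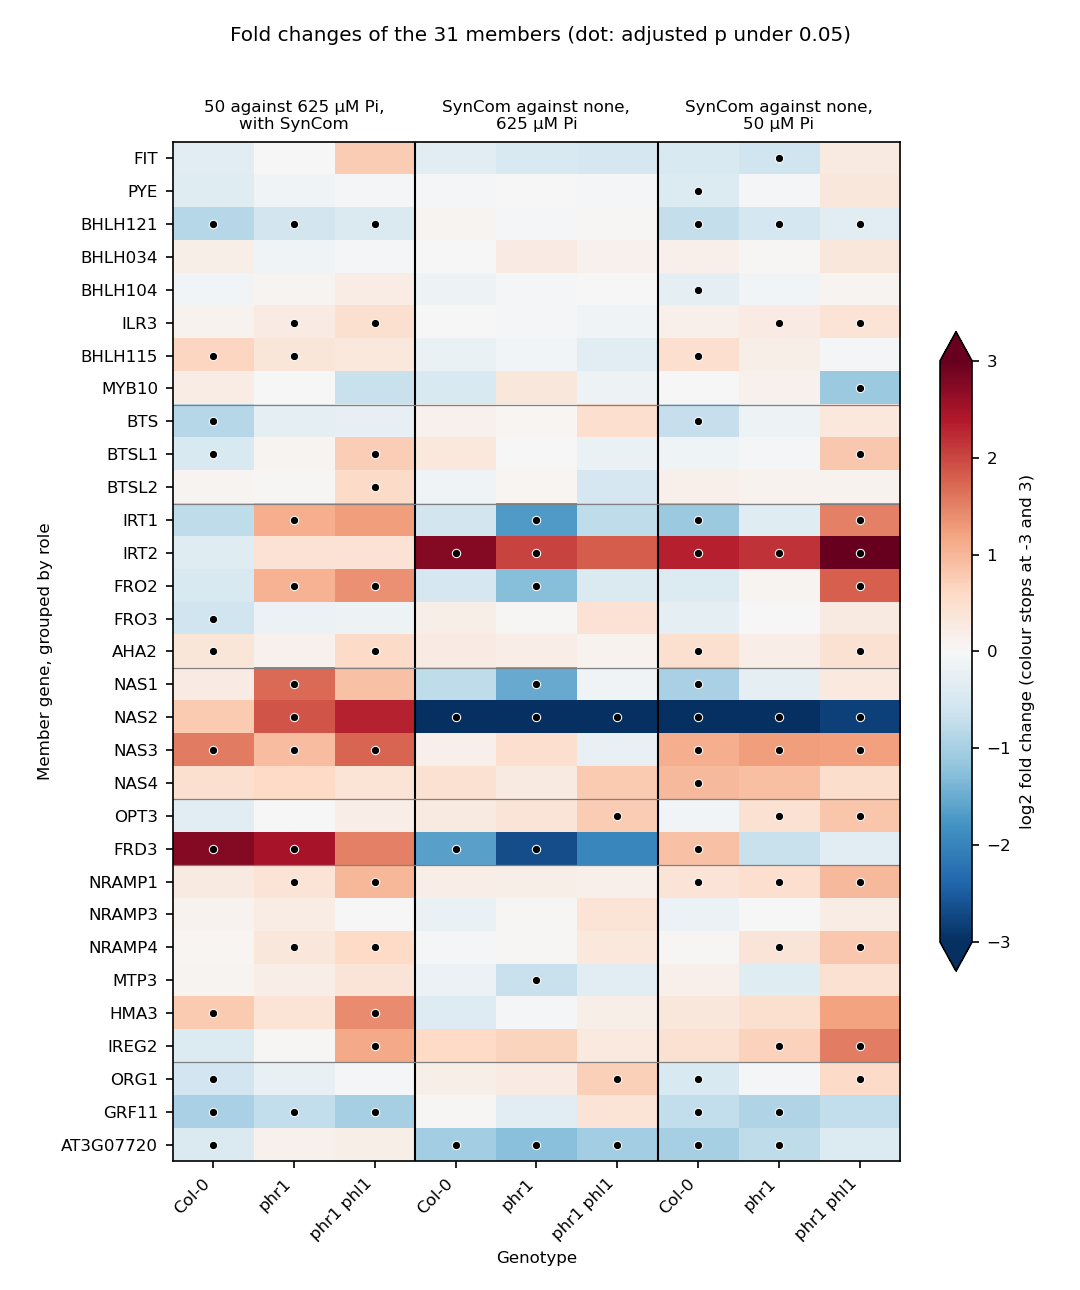
log2 fold changes of the 31 members, grouped by role from top to bottom, for low against high Pi with SynCom and for SynCom against no bacteria on high and on low Pi. Colour runs from blue (lower) to red (higher) and stops at -3 and 3, and a dot marks an adjusted p under 0.05. NAS2 was lower with SynCom in all 6 columns that test SynCom, and BHLH121 was lower on low Pi with SynCom in all 3 genotypes.

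Among the regulators, BHLH121 had the most regular response. This bHLH protein, also called URI, acts upstream of the subgroup Ib genes. Col-0 libraries had 106 (79.8 to 141) CPM without bacteria and 114 (82.2 to 152) CPM with SynCom at high Pi, and 99.8 (76.2 to 161) and 66.9 (39.1 to 84.0) CPM at low Pi. Those of phr1 had 114 (84.4 to 156) CPM without bacteria and 109 (84.6 to 169) CPM with SynCom at high Pi, and 105 (85.8 to 164) and 75.3 (58.7 to 98.2) CPM at low Pi. The group on low Pi with SynCom was the lowest in both genotypes, and its range met only the lower end of the others. On low against high Pi with SynCom, BHLH121 fell by 0.85 ± 0.09 (adjusted p = 6.16e-13) in Col-0, with that sign in 5 of 5 experiments. It fell by 0.55 ± 0.09 (adjusted p = 2.33e-06) in phr1, with that sign in 5 of 5. In phr1 phl1 its medians with SynCom were 111 (77.1 to 171) CPM on high and 84.6 (59.4 to 102) CPM on low Pi, and it fell by 0.44 ± 0.12 (adjusted p = 0.00466), a call that ended without experiment D (-0.26, adjusted p = 0.287). The Pi effect with SynCom less that without was -0.81 in Col-0 (adjusted p = 9.07e-07).

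FIT, which gives the network its name, was called in 1 of the 12 Pi and SynCom comparisons. Its level in Col-0 was 19.3 (2.36 to 35.7) CPM without bacteria and 15.7 (0.680 to 39.3) CPM with SynCom at high Pi, and 14.6 (2.30 to 24.6) and 11.3 (1.23 to 19.6) CPM at low Pi. The phr1 level was 21.4 (0.566 to 31.0) CPM without bacteria and 11.6 (0.615 to 28.4) CPM with SynCom at high Pi, and 18.1 (2.21 to 35.5) and 8.99 (0.675 to 22.9) CPM at low Pi. All 4 ranges overlap in both genotypes, since each holds libraries of C and D at the low end. With SynCom on low Pi, FIT fell by 0.60 ± 0.21 (adjusted p = 0.0274) in phr1, and the call ended without experiment A (-0.31, adjusted p = 0.407) or B (-0.58, adjusted p = 0.0705). The other folds were not called, for example -0.32 ± 0.22 (adjusted p = 0.228) for Pi with SynCom in Col-0. In phr1 phl1 that fold was 0.77 ± 0.33 (adjusted p = 0.0925), with the same sign in 3 of 3 experiments.

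The subgroup IVc proteins, which switch on FIT partners, were not called in the same direction. BHLH115 (AT1G51070) rose by 0.66 ± 0.11 (adjusted p = 1.26e-06) on low Pi with SynCom in Col-0, with that sign in 4 of 5 experiments, and rose by 0.51 ± 0.11 (adjusted p = 0.000117) with SynCom on low Pi. It rose by 0.35 ± 0.11 (adjusted p = 0.0163) on low Pi with SynCom in phr1, a call that ended without experiment C (0.26, adjusted p = 0.186) or D (0.26, adjusted p = 0.108). ILR3 had levels in the Col-0 libraries of C, D and E of 109.7 (102 to 130.2) CPM without bacteria and 109.6 (98.1 to 122) CPM with SynCom at high Pi, and 113 (97.0 to 126) and 117 (103 to 129) CPM at low Pi. In phr1 phl1 they were 109.6 (95.4 to 147) CPM without bacteria and 108 (87.7 to 126) CPM with SynCom at high Pi, and 113 (95.4 to 124) and 163 (109.9 to 167) CPM at low Pi. ILR3 was highest on low Pi with SynCom in the double mutant, where it rose by 0.48 ± 0.09 (adjusted p = 3.51e-05) with Pi, in 3 of 3 experiments. It rose by 0.40 ± 0.09 (adjusted p = 0.000564) there with SynCom, a call that ended without experiment D (0.34, adjusted p = 0.0567). In phr1 ILR3 rose by 0.24 ± 0.07 (adjusted p = 0.00457) on low Pi with SynCom, which ended without experiment C (0.18, adjusted p = 0.0768), and rose by 0.25 ± 0.07 (adjusted p = 0.00193) with SynCom on low Pi. BHLH104 (AT4G14410) fell by 0.29 ± 0.07 (adjusted p = 0.000975) with SynCom on low Pi in Col-0. BHLH034 (AT3G23210) passed the test in none of the Pi and SynCom comparisons (smallest adjusted p = 0.4). PYE (AT3G47640), a bHLH repressor of iron storage and transport genes, fell with SynCom on low Pi in Col-0 by 0.42 (adjusted p = 0.0499), and not without A, B or C (adjusted p from 0.14 to 0.223). MYB10 (AT3G12820), a MYB protein needed with MYB72 for growth on little iron, fell with SynCom on low Pi in phr1 phl1 by 1.1 (adjusted p = 0.0392), and not without experiment C (-1.28, adjusted p = 0.132) or D (-0.79, adjusted p = 0.432) or without the 4 libraries that stood apart (adjusted p = 0.0646).

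BTS (AT3G18290), the ubiquitin ligase that restrains the iron response, fell in Col-0 with the Pi and bacterial treatment combined. It fell by 0.85 ± 0.13 (adjusted p = 9.15e-08) on low against high Pi with SynCom, with that sign in 5 of 5 experiments, and fell by 0.68 ± 0.13 (adjusted p = 1.33e-05) with SynCom on low Pi, also in 5 of 5. Its interaction of Pi and SynCom in Col-0 was -0.80 (adjusted p = 0.000521), and in phr1 and phr1 phl1 BTS was not called for Pi or SynCom. BTSL1 (AT1G74770), a root ligase of the same family, fell on low Pi with SynCom in Col-0 by 0.46 (adjusted p = 0.0453), and not without A, B or E (adjusted p from 0.0747 to 0.229). In phr1 phl1 BTSL1 had the opposite sign, 0.73 for Pi with SynCom (adjusted p = 0.05 after rounding) and 0.80 for SynCom on low Pi (adjusted p = 0.0399), and both calls ended when any 1 of A, B, C or D was left out. The first also ended without the 4 libraries that stood apart (adjusted p = 0.0542). BTSL2 (AT1G18910) rose on low Pi with SynCom in phr1 phl1 by 0.58 (adjusted p = 0.0308), a call that ended without experiment C (0.53, adjusted p = 0.18) or D (0.31, adjusted p = 0.401).

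IRT1 responded in different directions by genotype. In Col-0 its level was 17.7 (0.471 to 114) CPM without bacteria and 9.64 (0.767 to 66.5) CPM with SynCom at high Pi, and 19.7 (0.288 to 74.9) and 11.8 (0.461 to 35.9) CPM at low Pi. In phr1 it was 27.9 (1.22 to 109) CPM without bacteria and 4.81 (0.790 to 52.6) CPM with SynCom at high Pi, and 29.5 (0 to 109.7) and 17.2 (0.675 to 72.6) CPM at low Pi. In phr1 phl1 it was 4.30 (1.06 to 166) CPM without bacteria and 2.96 (0.447 to 78.9) CPM with SynCom at high Pi, and 2.91 (0.483 to 57.2) and 11.9 (0.791 to 140) CPM at low Pi. The Col-0 libraries of the same experiments, C, D and E, had 3.18 (0.471 to 82.6) CPM without bacteria and 5.10 (0.767 to 66.5) CPM with SynCom at high Pi, and 4.07 (0.288 to 43.4) and 1.11 (0.461 to 15.4) CPM at low Pi. Every group spans from about 1 CPM or less to over 10 CPM, so all groups overlap, and the tests rest on differences within experiments. With SynCom on low Pi, IRT1 fell by 1.12 ± 0.36 (adjusted p = 0.00906) in Col-0, with that sign in 5 of 5 experiments. In phr1 phl1 the same comparison gave a rise of 1.52 ± 0.52 (adjusted p = 0.0392), in 3 of 3 experiments, which ended without experiment C (1.32, adjusted p = 0.232) or D (1.33, adjusted p = 0.237) and without the 4 libraries that stood apart (adjusted p = 0.0514). The difference between these effects was 2.64 (adjusted p = 0.00268) and stayed under 0.05 whichever experiment was left out. In phr1, IRT1 fell by 1.69 ± 0.37 (adjusted p = 0.00091) with SynCom on high Pi, a call that ended without experiment B (-1.33, adjusted p = 0.0689), and on low against high Pi with SynCom it rose by 1.08 ± 0.38 (adjusted p = 0.0255), which ended without experiment A (0.77, adjusted p = 0.216) or B (0.92, adjusted p = 0.124). For Pi with SynCom in Col-0 the fold was -0.77 ± 0.38 (adjusted p = 0.082), not called, but -1.88 with an adjusted p of 0.01 in C, D and E alone.

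FRO2 moved with IRT1 in the mutants. In Col-0 its level was 18.3 (0.236 to 103) CPM without bacteria and 12.3 (1.13 to 77.5) CPM with SynCom at high Pi, and 16.1 (0.863 to 53.8) and 19.8 (0.736 to 32.1) CPM at low Pi. In phr1 it was 26.5 (0.408 to 101) CPM without bacteria and 8.81 (0.294 to 52.2) CPM with SynCom at high Pi, and 22.6 (0 to 94.6) and 21.7 (0.960 to 119.7) CPM at low Pi. The double mutant had 2.18 (1.18 to 179) CPM without bacteria and 3.05 (0.447 to 101) CPM with SynCom at high Pi, and 2.83 (0.643 to 71.3) and 11.3 (1.98 to 186) CPM at low Pi. In C, D and E alone Col-0 had 3.57 (0.236 to 99.4) CPM without bacteria and 2.95 (1.13 to 69.02) CPM with SynCom at high Pi, and 4.55 (0.863 to 48.8) and 1.67 (0.736 to 32.1) CPM at low Pi. As for IRT1, all groups overlap because of the experiments. In phr1 phl1, FRO2 rose by 1.8 ± 0.47 (adjusted p = 0.00441) with SynCom on low Pi, in 3 of 3 experiments, a call that ended without experiment C (1.58, adjusted p = 0.0888) or D (1.74, adjusted p = 0.0549). It rose by 1.36 ± 0.45 (adjusted p = 0.0222) there on low against high Pi with SynCom, which ended without experiment C (1.03, adjusted p = 0.273) or D (1.32, adjusted p = 0.124). In phr1, FRO2 fell by 1.28 ± 0.32 (adjusted p = 0.00538) with SynCom on high Pi in 3 of 5 experiments, which ended without experiment A (-1.18, adjusted p = 0.0673) or B (-1.02, adjusted p = 0.128). On low against high Pi with SynCom it rose by 1.04 ± 0.33 (adjusted p = 0.0123) in phr1, which ended without experiment A (0.76, adjusted p = 0.156). No comparison of Pi or SynCom called FRO2 in Col-0, where the folds were -0.45 for Pi with SynCom, -0.50 for SynCom on high Pi and -0.40 on low Pi.

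**Figure D3:**
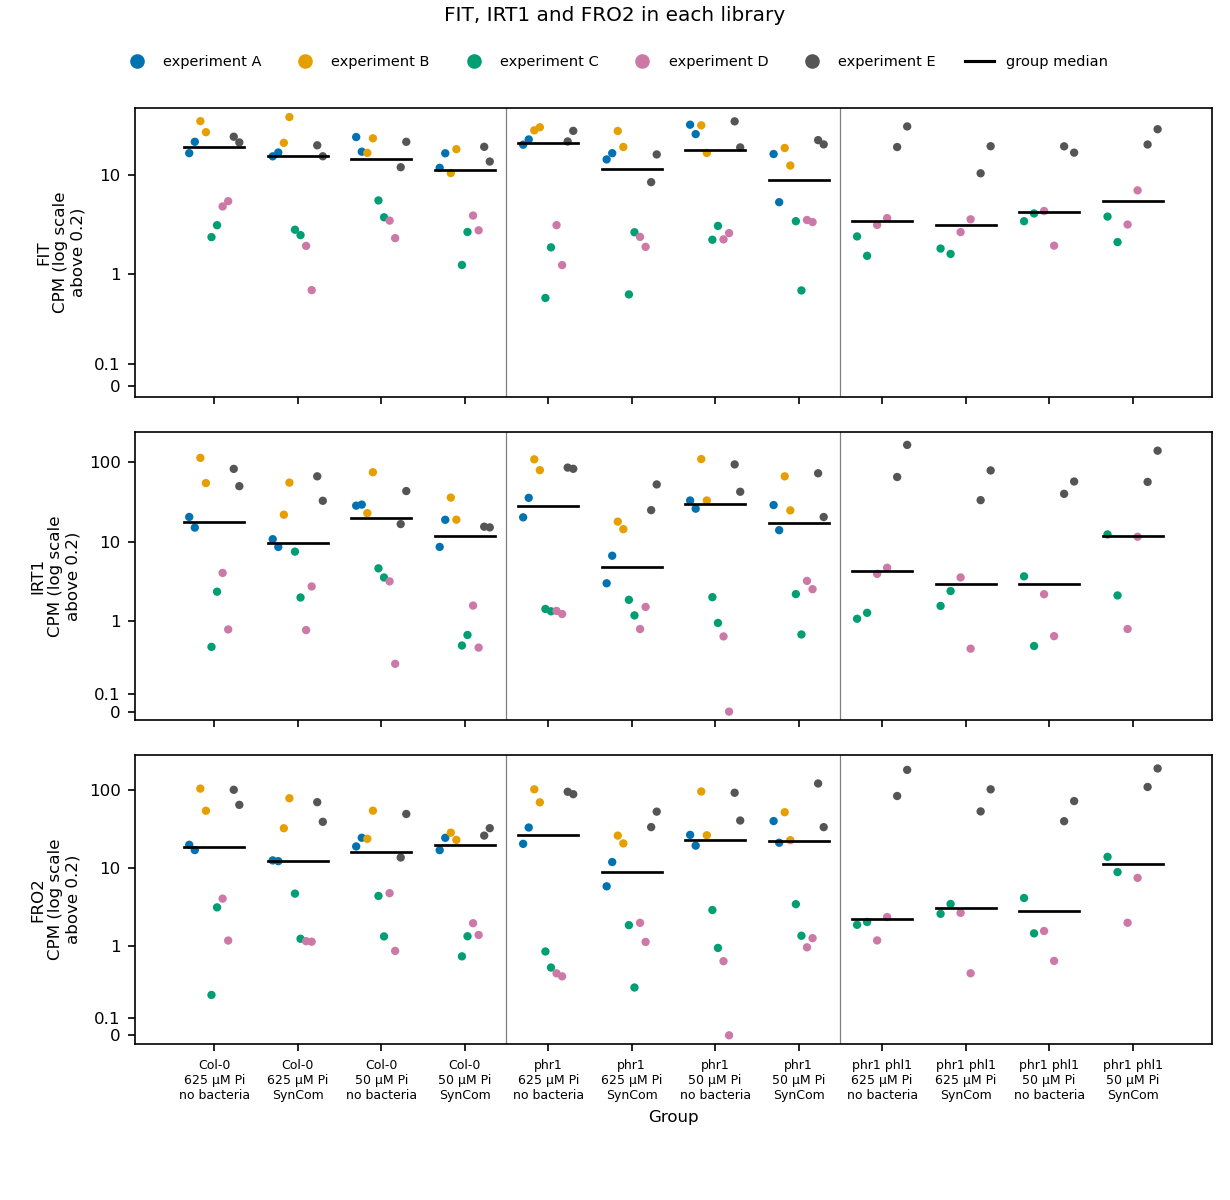
FIT, IRT1 and FRO2 in each library by group, coloured by experiment, with a bar at the group median. The vertical axis is CPM, linear up to 0.2 and logarithmic above. Libraries of experiments C and D lie below most of those of A, B and E. The phr1 phl1 group on low Pi with SynCom, drawn from C, D and E, has medians of 11.9 CPM for IRT1 and 11.3 CPM for FRO2.

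IRT2 (AT4G19680), a close relative of IRT1 that works inside root cells, rose with SynCom in 5 of the 6 comparisons. Col-0 libraries had 0.0639 (0 to 1.90) CPM without bacteria and 2.11 (0 to 10.2) CPM with SynCom at high Pi, and 0.199 (0 to 1.93) and 2.70 (0 to 6.52) CPM at low Pi. These levels are low: the 10 libraries on high Pi held 163 counts of IRT2 with SynCom and 32 without, a scaled ratio of 6.39 with an exact 95% interval of 4.35 to 9.65 that covers counting error only. On low Pi they held 154 and 33 counts, a ratio of 5.17 (3.53 to 7.78). IRT2 rose by 2.75 ± 0.35 (adjusted p = 5.36e-09) on high and rose by 2.32 ± 0.35 (adjusted p = 6.28e-08) on low Pi in Col-0, with the same sign in 3 of 3 experiments that had counts enough to fit it alone. In phr1 it rose by 2.03 ± 0.36 (adjusted p = 3.25e-05) and rose by 2.18 ± 0.35 (adjusted p = 7.29e-07), with 102 against 33 and 153 against 32 counts. In phr1 phl1, 29 counts with SynCom on low Pi stood against 3 without, a ratio of 11.9 (3.68 to 60.9), and the fold of 2.99 ± 0.75 (adjusted p = 0.00331) was not called without experiment E (2.12, adjusted p = 0.386). On high Pi they were 16 against 12 counts, a ratio of 1.89 (0.839 to 4.38), and the fold of 1.82 ± 0.63 (adjusted p = 0.11) was not called. These ratios pool experiments of unequal depth and, unlike the folds, do not hold experiment fixed. In phr1 phl1 IRT2 was found mainly in E. Libraries of E on high Pi held 3.51 and 3.56 CPM with SynCom and 0.772 and 1.04 CPM without. Those on low Pi held 4.35 and 4.98 CPM with SynCom and 0.400 and 1.00 CPM without. IRT1 and IRT2 thus gave folds of opposite sign with SynCom in Col-0 at both Pi levels, although IRT1 was called only on low Pi.

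The other uptake genes changed less. AHA2 (AT4G30190), a proton pump of the root surface, rose by 0.35 ± 0.10 (adjusted p = 0.00228) on low Pi with SynCom in Col-0 and rose by 0.48 ± 0.10 (adjusted p = 5.56e-05) with SynCom on low Pi, the latter in 5 of 5 experiments. In phr1 phl1 AHA2 rose by 0.58 ± 0.13 (adjusted p = 0.000718) with Pi, which ended without experiment C (0.38, adjusted p = 0.097), and rose by 0.46 ± 0.13 (adjusted p = 0.0101) with SynCom on low Pi, which ended without experiment C (0.36, adjusted p = 0.143) or D (0.44, adjusted p = 0.116). FRO3 (AT1G23020), a ferric reductase of mitochondria that rises in iron-deficient plants, fell by 0.61 ± 0.15 (adjusted p = 0.000425) on low Pi with SynCom in Col-0, in 5 of 5 experiments, though not in C, D and E alone (adjusted p = 0.0525).

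Among the 4 nicotianamine synthase genes, NAS2 (AT5G56080) fell with SynCom in all 6 comparisons. It had a level in Col-0 of 1.74 (0.781 to 10.2) CPM without bacteria and 0.237 (0 to 0.467) CPM with SynCom at high Pi, and 3.39 (0.575 to 7.91) and 0.397 (0 to 0.781) CPM at low Pi. For phr1 it was 2.61 (0.408 to 6.29) CPM without bacteria and 0 (0 to 0.395) CPM with SynCom at high Pi, and 4.09 (0.957 to 8.63) and 0.331 (0 to 1.04) CPM at low Pi. For phr1 phl1 it was 1.58 (1.00 to 5.93) CPM without bacteria and 0 (0 to 0.438) CPM with SynCom at high Pi, and 3.04 (0.322 to 6.20) and 0 (0 to 1.87) CPM at low Pi. On high Pi the libraries with and without SynCom did not overlap in any of the 3 genotypes, and on low Pi they overlapped at the edge. In counts, the 10 Col-0 libraries on high Pi held 9 with SynCom and 224 without, a scaled ratio of 0.0504 (exact 95% interval 0.0228 to 0.0974). In phr1 the counts were 4 and 203, a ratio of 0.0274 (0.0074 to 0.0713), and in phr1 phl1 they were 1 and 78, a ratio of 0.0182 (0.000454 to 0.104). On low Pi the counts were 21 and 233 in Col-0, 22 and 234 in phr1, and 8 and 66 in phr1 phl1. NAS2 fell by 3.90 ± 0.41 (adjusted p = 4.15e-12) with SynCom on high Pi in Col-0, fell by 4.70 ± 0.47 (adjusted p = 8.80e-13) in phr1 and fell by 4.69 ± 0.75 (adjusted p = 1.64e-05) in phr1 phl1. On low Pi it fell by 3.24 ± 0.35 (adjusted p = 1.20e-12), fell by 3.37 ± 0.35 (adjusted p = 3.92e-13) and fell by 2.81 ± 0.53 (adjusted p = 7.98e-05). All 6 calls remained when each experiment was left out in turn. Low counts make the size of these folds uncertain, as in phr1 phl1 on high Pi, where the fold was -5.56 without experiment E.

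NAS3 (AT1G09240), the synthase expressed mainly in leaves, rose with SynCom on low Pi, where NAS2 fell. With SynCom on high Pi NAS3 was not called in any genotype. Its folds there in single experiments ran from -2.13 to 1.09 in Col-0, from -0.60 to 1.35 in phr1 and from -1.05 to 0.64 in phr1 phl1. Col-0 gave 6.40 (2.02 to 14.6) CPM without bacteria and 5.25 (0.384 to 33.0) CPM with SynCom at high Pi, and 9.27 (2.42 to 25.9) and 19.5 (5.53 to 41.3) CPM at low Pi. The phr1 level was 5.89 (2.85 to 22.6) CPM without bacteria and 9.95 (2.37 to 29.2) CPM with SynCom at high Pi, and 6.04 (2.21 to 37.4) and 16.3 (6.40 to 38.9) CPM at low Pi. The group on low Pi with SynCom was the highest in both, with ranges that overlap the others. NAS3 rose by 1.56 ± 0.29 (adjusted p = 4.03e-06) on low against high Pi with SynCom in Col-0, with that sign in 5 of 5 experiments. It rose by 1.09 ± 0.27 (adjusted p = 0.000693) with SynCom on low Pi in Col-0 and rose by 1.26 ± 0.28 (adjusted p = 0.000317) in phr1, and these calls also remained when each experiment was left out. In phr1 it rose by 0.94 ± 0.28 (adjusted p = 0.0088) on low Pi with SynCom, which ended without experiment C (0.74, adjusted p = 0.0868). In phr1 phl1 it rose by 1.74 ± 0.42 (adjusted p = 0.00143) with Pi, which ended without experiment D (1.02, adjusted p = 0.199), and rose by 1.22 ± 0.40 (adjusted p = 0.0267) with SynCom on low Pi, which ended without experiment C (1.24, adjusted p = 0.126) or D (0.76, adjusted p = 0.399). Leaving out E moved the first of these to 2.33.

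NAS1 (AT5G04950) and NAS4 (AT1G56430), which complete the family, were called less often. NAS1 fell by 0.97 ± 0.27 (adjusted p = 0.00255) with SynCom on low Pi in Col-0 and fell by 1.51 ± 0.31 (adjusted p = 0.000451) with SynCom on high Pi in phr1. On low against high Pi with SynCom, NAS1 rose by 1.69 ± 0.31 (adjusted p = 1.80e-05) in phr1, in 5 of 5 experiments. NAS2 also rose by 1.88 ± 0.63 (adjusted p = 0.0193) there, a call that ended without experiment C (1.84, adjusted p = 0.0528) or E (1.58, adjusted p = 0.073). NAS4 rose with SynCom on low Pi in Col-0 by 0.96 (adjusted p = 0.0268), and not without A, B or C (adjusted p from 0.0525 to 0.34). NAS1 and NAS2 share an identical stretch of 49 bases and NAS3 and NAS4 one of 32 bases, so reads within these cannot be told apart by sequence. How such reads were counted was not given.

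**Figure D4:**
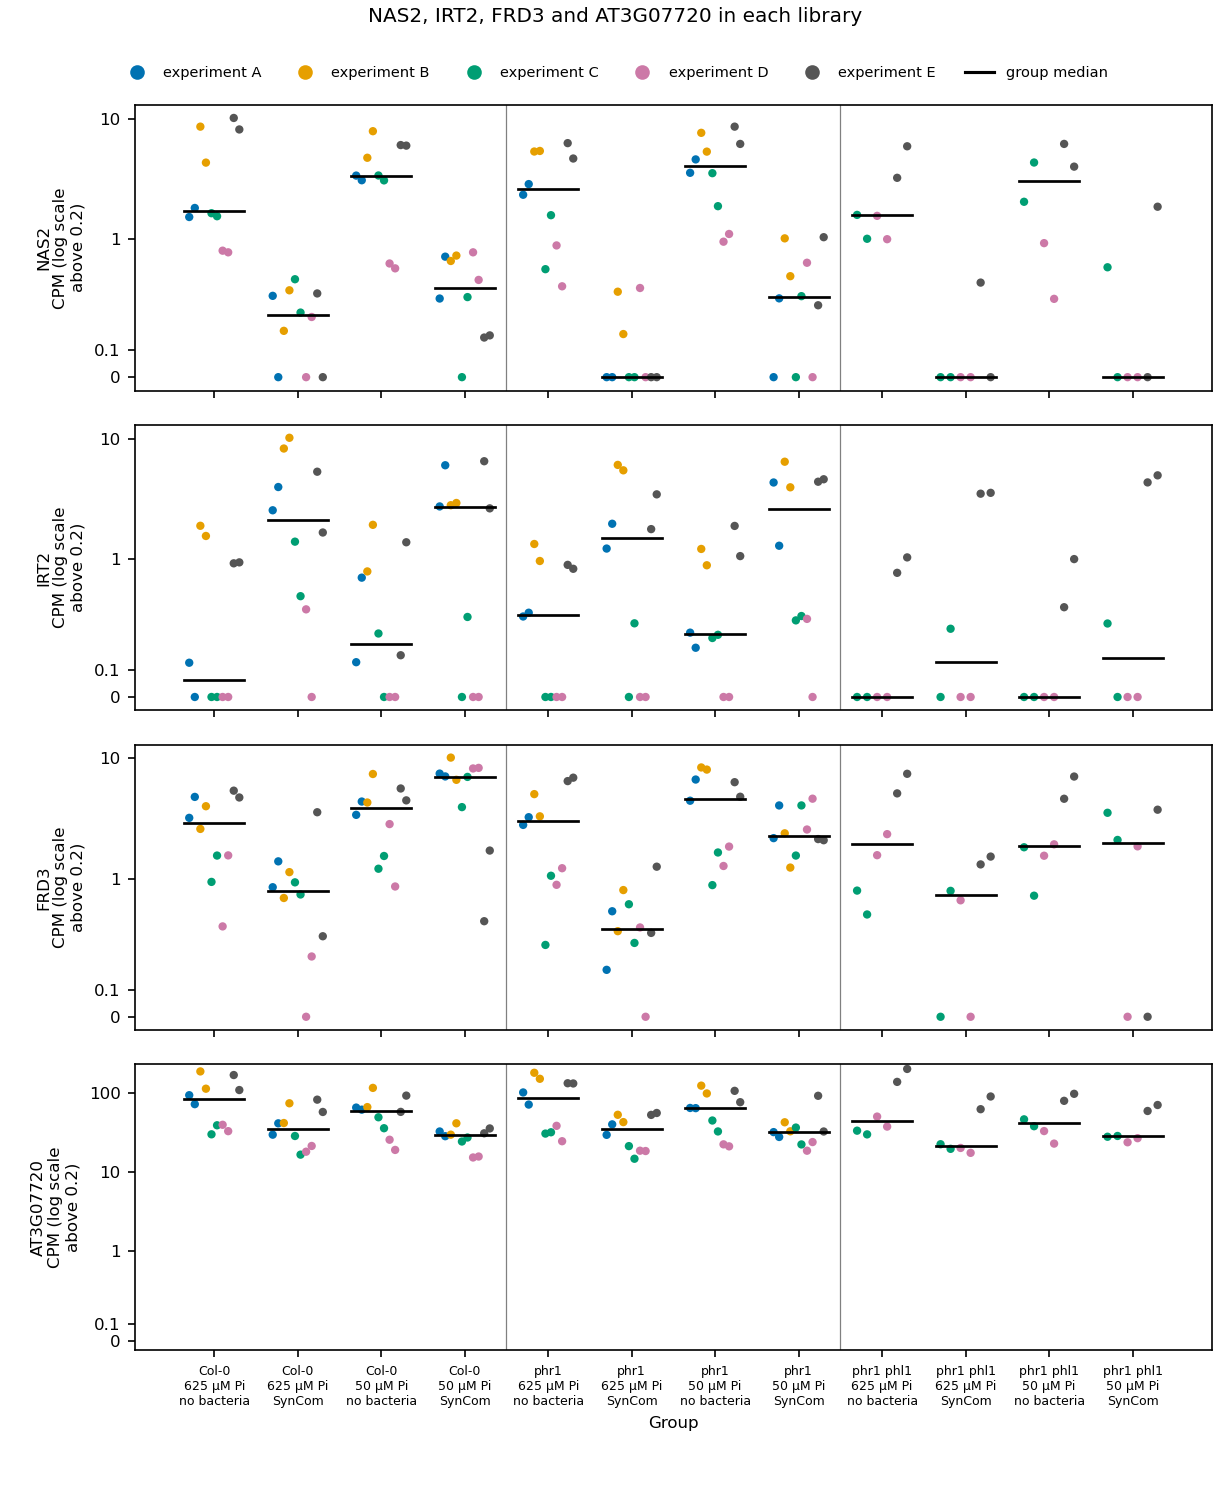
NAS2, IRT2, FRD3 and AT3G07720 in each library by group, coloured by experiment, with a bar at the group median. The vertical axis is CPM, linear up to 0.2 and logarithmic above. NAS2 on high Pi has no library with SynCom above 0.467 CPM and none without bacteria below 0.408 CPM.

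FRD3 (AT3G08040), which releases citrate into the xylem so that iron can travel to the shoot, fell with SynCom on high Pi in Col-0 and phr1, and on low Pi it rose in Col-0 alone. Col-0 gave 2.89 (0.403 to 5.37) CPM without bacteria and 0.796 (0 to 3.56) CPM with SynCom at high Pi, and 3.83 (0.863 to 7.38) and 7.01 (0.445 to 10.09) CPM at low Pi. For phr1 the level was 3.02 (0.283 to 6.88) CPM without bacteria and 0.382 (0 to 1.26) CPM with SynCom at high Pi, and 4.61 (0.886 to 8.36) and 2.28 (1.24 to 4.61) CPM at low Pi. The double mutant had 1.96 (0.506 to 7.41) CPM without bacteria and 0.729 (0 to 1.53) CPM with SynCom at high Pi, and 1.88 (0.724 to 7.03) and 1.98 (0 to 3.73) CPM at low Pi. The lowest medians in Col-0 and phr1 were those of high Pi with SynCom, and the highest Col-0 median was that of low Pi with SynCom. With SynCom, FRD3 rose by 2.76 ± 0.42 (adjusted p = 6.06e-08) on low against high Pi in Col-0, in 4 of 5 experiments, and rose by 2.46 ± 0.51 (adjusted p = 0.00013) in phr1, in 5 of 5. SynCom on high Pi lowered it: FRD3 fell by 2.66 ± 0.49 (adjusted p = 5.41e-05) in phr1, with 20 counts against 218, and fell by 1.62 ± 0.44 (adjusted p = 0.0146) in Col-0, with 39 counts against 171. The Col-0 call ended without experiment A (-1.53, adjusted p = 0.146) or B (-1.53, adjusted p = 0.112). On low Pi in Col-0 FRD3 rose by 0.87 ± 0.34 (adjusted p = 0.0322) with SynCom, and not without A, B, C or D (adjusted p from 0.0514 to 0.269) or without the 4 libraries that stood apart (adjusted p = 0.0828). The low Pi libraries of phr1 held 122 counts with SynCom and 242 without, a ratio of 0.529 (0.422 to 0.661), with a fold of -0.66 ± 0.37 (adjusted p = 0.184) that was not called. For phr1 phl1 the counts were 34 and 52 on low Pi, a ratio of 0.803 (0.505 to 1.26), and 12 and 99 on high Pi, a ratio of 0.172 (0.0859 to 0.314). Neither was called, with folds of -0.32 ± 0.57 (adjusted p = 0.78) and -1.96 ± 0.65 (adjusted p = 0.0899). The Pi effect in Col-0 differed with SynCom by 2.49 (adjusted p = 0.000342). The endodermis markers, a root tissue next to the cells where FRD3 acts, were called lower for 4 of 7 genes with SynCom on high Pi in Col-0, and their summed level had a median of 105 (37.7 to 272) CPM without and 55.1 (16.8 to 154) CPM with SynCom. Their part in the FRD3 result was not tested.

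OPT3 (AT4G16370), which loads iron into the phloem and carries information on shoot iron to the root, was called with SynCom in the mutants. It rose by 0.45 ± 0.15 (adjusted p = 0.0155) on low Pi in phr1, which ended without experiment B (0.10, adjusted p = 0.702). In phr1 phl1 it rose by 0.82 ± 0.19 (adjusted p = 0.00137) on low Pi, which ended without experiment D (0.68, adjusted p = 0.1), and rose by 0.76 ± 0.19 (adjusted p = 0.0136) on high Pi, which ended without C, D or E (adjusted p from 0.0518 to 0.18). In Col-0 its folds with SynCom were 0.28 on high and -0.08 on low Pi, neither called.

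Of the metal transporters, NRAMP4 and NRAMP1 rose in the mutants on low Pi with SynCom. NRAMP4 (AT5G67330), which releases iron from the vacuole, had levels in phr1 phl1 of 32.6 (28.1 to 38.8) CPM without bacteria and 45.1 (25.0 to 49.1) CPM with SynCom at high Pi, and 35.6 (26.7 to 45.2) and 63.7 (38.4 to 81.5) CPM at low Pi. In the Col-0 libraries of C, D and E they were 32.8 (27 to 38.9) CPM without bacteria and 30.7 (23.0 to 44.1) CPM with SynCom at high Pi, and 32.2 (28.4 to 35.6) and 33.7 (23.5 to 39.6) CPM at low Pi. The double mutant on low Pi with SynCom was the highest group, and its lowest library, at 38.4 CPM, lay within the range of the other groups. In phr1 phl1, NRAMP4 rose by 0.81 ± 0.12 (adjusted p = 1.21e-06) with SynCom on low Pi, in 3 of 3 experiments and whichever experiment was left out. It rose by 0.61 ± 0.12 (adjusted p = 0.000179) with Pi, which ended without experiment D (0.36, adjusted p = 0.0859). In phr1 it rose by 0.38 ± 0.09 (adjusted p = 0.00114) with SynCom on low Pi, which ended without experiment B (0.25, adjusted p = 0.0819), and rose by 0.34 ± 0.09 (adjusted p = 0.00414) with Pi, which ended without experiment C (0.29, adjusted p = 0.0593). NRAMP3 (AT2G23150), which works with NRAMP4 at the vacuole, passed the test in no Pi or SynCom comparison (smallest adjusted p = 0.252).

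NRAMP1 (AT1G80830), which takes up manganese and also iron at the root, had levels in the Col-0 libraries of C, D and E of 33.8 (21.8 to 59.7) CPM without bacteria and 40.0 (22.4 to 74.8) CPM with SynCom at high Pi, and 41.5 (25.2 to 59.9) and 55.1 (45.4 to 81.2) CPM at low Pi. In phr1 phl1 they were 39.6 (25.5 to 73.7) CPM without bacteria and 46.8 (30.8 to 84) CPM with SynCom at high Pi, and 49.0 (38.5 to 61.2) and 99.7 (44.2 to 129.6) CPM at low Pi. The ranges overlap in each genotype, with the highest median on low Pi with SynCom in the double mutant. NRAMP1 rose by 0.99 ± 0.20 (adjusted p = 0.000124) there with Pi, which ended without experiment D (0.57, adjusted p = 0.099), and rose by 0.97 ± 0.19 (adjusted p = 0.000204) with SynCom on low Pi, which ended without experiment D (0.66, adjusted p = 0.0631). In Col-0 and phr1 it rose with SynCom on low Pi by 0.41 and 0.51 (adjusted p = 0.0181 and 0.00561), in 5 of 5 experiments each, and the calls ended without experiment B (0.37, adjusted p = 0.0808) or D (0.20, adjusted p = 0.298) in Col-0 and without experiment B (0.41, adjusted p = 0.0819) in phr1. In phr1 it also rose with Pi by 0.41 (adjusted p = 0.0316), and not without A, B, C or D (adjusted p from 0.0534 to 0.193).

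The other metal transporter genes gave fewer calls than NRAMP4 or NRAMP1. IREG2 (AT5G03570), which moves nickel and cobalt into the vacuole of root cells, rose by 1.54 ± 0.37 (adjusted p = 0.0018) with SynCom on low Pi in phr1 phl1, whichever experiment was left out. It rose by 1.13 ± 0.35 (adjusted p = 0.0143) there with Pi, which ended without experiment C (0.70, adjusted p = 0.363) or D (0.83, adjusted p = 0.185), while leaving out E raised the fold to 2.01. In phr1 it rose by 0.70 ± 0.25 (adjusted p = 0.03) with SynCom on low Pi, which ended without experiment C (0.60, adjusted p = 0.114) or D (0.48, adjusted p = 0.138). HMA3 (AT4G30120) rose on low Pi with SynCom by 0.79 in Col-0 (adjusted p = 0.0182) and by 1.42 in phr1 phl1 (adjusted p = 0.0194). The Col-0 call ended without A, C or D (adjusted p from 0.0707 to 0.116), and that in phr1 phl1 without experiment C (1.46, adjusted p = 0.132) or D (1.25, adjusted p = 0.157). MTP3 (AT3G58810), which stores zinc, fell with SynCom on high Pi in phr1 by 0.67 (adjusted p = 0.0326), and not without A, B, C or E (adjusted p from 0.067 to 0.25).

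Among the other iron-responsive genes, AT3G07720, which encodes a kelch repeat protein and is a common marker of iron deficiency, fell with SynCom on high Pi in each genotype. In Col-0 its level was 82.8 (29.9 to 187) CPM without bacteria and 35.4 (16.5 to 82.2) CPM with SynCom at high Pi, and 59.5 (19.0 to 116) and 29.0 (15.2 to 41.3) CPM at low Pi. In phr1 it was 86.3 (24.5 to 180) CPM without bacteria and 34.7 (14.7 to 55.7) CPM with SynCom at high Pi, and 64.3 (21.1 to 124) and 32.2 (18.6 to 92.0) CPM at low Pi. The libraries with SynCom were lower at both Pi levels, with overlapping ranges. AT3G07720 fell by 1.05 ± 0.17 (adjusted p = 4.13e-06) with SynCom on high Pi in Col-0, fell by 1.26 ± 0.17 (adjusted p = 4.55e-08) in phr1 and fell by 1.03 ± 0.22 (adjusted p = 0.00287) in phr1 phl1, with that sign in 5 of 5, 5 of 5 and 3 of 3 experiments. The call in phr1 phl1 ended without experiment D (-0.96, adjusted p = 0.0943) or E (-0.93, adjusted p = 0.0562). On low Pi it fell by 0.99 ± 0.17 (adjusted p = 2.20e-06) in Col-0 and fell by 0.75 ± 0.17 (adjusted p = 0.000396) in phr1. It also fell on low against high Pi with SynCom in Col-0, by 0.43 (adjusted p = 0.0376), and not without A, B, D or E (adjusted p from 0.0515 to 0.225).

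GRF11 (AT1G34760), a regulatory protein of the 14-3-3 family linked to FIT activation, was lowest on low Pi with SynCom. The Col-0 level was 22.2 (13.9 to 32.6) CPM without bacteria and 20.8 (14.6 to 34.0) CPM with SynCom at high Pi, and 20.5 (12.9 to 24.7) and 9.37 (0.461 to 26.0) CPM at low Pi. The double mutant had 14.2 (3.99 to 24.4) CPM without bacteria and 18.4 (10.9 to 22.4) CPM with SynCom at high Pi, and 13.7 (8.04 to 25.1) and 9.09 (4.35 to 15.6) CPM at low Pi. The ranges overlap, the lowest Col-0 library being at 0.461 CPM. GRF11 fell by 0.98 ± 0.20 (adjusted p = 2.83e-05) on low against high Pi with SynCom in Col-0 and fell by 0.73 ± 0.20 (adjusted p = 0.00176) with SynCom on low Pi, and both calls remained when each experiment was left out. In phr1 it fell by 0.91 ± 0.20 (adjusted p = 0.000254) with SynCom on low Pi and fell by 0.73 ± 0.20 (adjusted p = 0.00467) with Pi, the latter ending without experiment B (-0.56, adjusted p = 0.0789) or C (-0.63, adjusted p = 0.0548). In phr1 phl1 it fell by 0.99 ± 0.29 (adjusted p = 0.00909) with Pi, which ended without experiment C (-0.78, adjusted p = 0.209) or D (-0.97, adjusted p = 0.0572). ORG1 (AT5G53450), which encodes a kinase-like protein, fell by 0.58 ± 0.13 (adjusted p = 0.000151) on low Pi with SynCom in Col-0, in 5 of 5 experiments. With SynCom on low Pi it fell by 0.46 ± 0.13 (adjusted p = 0.00284) in Col-0, which ended without experiment D (-0.30, adjusted p = 0.0993), and rose by 0.58 ± 0.17 (adjusted p = 0.0142) in phr1 phl1, which ended without experiment D (0.67, adjusted p = 0.0629) or E (0.21, adjusted p = 0.373). On high Pi in phr1 phl1 ORG1 rose by 0.72 ± 0.17 (adjusted p = 0.00733) with SynCom, which ended without experiment C (0.51, adjusted p = 0.279).

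The genotypes differed in the members on low Pi with SynCom and in no other condition at the threshold. On low Pi with SynCom, 18 members were higher and 2 lower in phr1 phl1 than in Col-0, where 17.2% of all genes were higher and 18.8% lower. In phr1, 8 were higher and 3 lower than in Col-0, against 11.7% and 13.4% of all genes. In phr1 phl1 against phr1, 6 were higher and 0 lower, against 1.02% and 1.61%. The median member fold was 0.45 for phr1 phl1 against Col-0, 0.14 for phr1 against Col-0 and 0.36 for phr1 phl1 against phr1, beside -0.02, -0.00 and -0.01 over all genes. In the 3 other conditions edgeR and DESeq2 called 0 members in each comparison of genotypes, and few genes of the whole table. For phr1 against Col-0 edgeR called 0.0581% of all genes on high Pi without bacteria, 0.0951% on high Pi with SynCom and 0.0581% on low Pi without bacteria. For phr1 phl1 against Col-0 these shares were 0.0793%, 0.106% and 0.0634%, and for phr1 phl1 against phr1 they were 0.0898%, 0.0423% and 0.0634%. At an unadjusted p under 0.05, phr1 differed from Col-0 in 5 members on high Pi with SynCom and in 0 in both conditions without bacteria. By the same measure phr1 phl1 differed from Col-0 in 8, 2 and 2 members on high Pi with SynCom, high Pi without bacteria and low Pi without bacteria, and from phr1 in 9, 3 and 0. The matching shares of all genes on high Pi with SynCom were 3.97% for phr1 against Col-0, 8.4% for phr1 phl1 against Col-0 and 6.18% for phr1 phl1 against phr1. On high Pi without bacteria they were 3.72%, 13.4% and 8.2%, and on low Pi without bacteria 1.46%, 3.71% and 2.81%.

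IRT1 and FRO2 showed the largest rise in the double mutant. Means of the 2 libraries for IRT1 in C, D and E were 0.578, 1.01 and 15.3 CPM in Col-0, 1.43, 2.86 and 46.5 CPM in phr1 and 7.21, 6.15 and 98.3 CPM in phr1 phl1. By these means IRT1 stood lowest in Col-0, between in phr1 and highest in phr1 phl1 in each of these 3 experiments. Single libraries of phr1 and phr1 phl1 overlapped in each. In D the phr1 phl1 libraries held 0.791 and 11.5 CPM, those of phr1 3.20 and 2.51 CPM and those of Col-0 1.56 and 0.461 CPM. For FRO2 the means were 1.03, 1.67 and 28.9 CPM in Col-0, 2.39, 1.11 and 76.4 CPM in phr1 and 11.3, 4.70 and 147 CPM in phr1 phl1. The double mutant was highest in each, and phr1 lay below Col-0 in D. Against Col-0, IRT1 was higher in phr1 phl1 by 2.45 ± 0.45 (adjusted p = 1.05e-05) and FRO2 by 2.40 ± 0.39 (adjusted p = 8.97e-07), and both calls remained in C, D and E alone and when each experiment was left out. In phr1, IRT1 was higher than in Col-0 by 0.99 ± 0.37 (adjusted p = 0.0351), in 5 of 5 experiments, but no longer called when any 1 experiment was left out. FRO2 in phr1 differed from Col-0 by 0.81 ± 0.32 (adjusted p = 0.0513), not called. FIT was higher in phr1 phl1 by 0.83 ± 0.28 (adjusted p = 0.0152), in 3 of 3 experiments, a call that ended without experiment D (0.75, adjusted p = 0.0765) and in C, D and E alone (adjusted p = 0.122).

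By role, 5 of 8 regulators were higher in phr1 phl1 than in Col-0 and 1 was lower, 2 of 3 ligases were higher, and 4 of 6 metal transporters were higher. Of the pair of long-distance genes, OPT3 was higher and FRD3 lower. NRAMP4 was higher than in Col-0 by 0.88 ± 0.11 (adjusted p = 5.65e-10), with means in C, D and E of 36.1, 26 and 35.4 CPM in Col-0 and 60.4, 63.7 and 60.0 CPM in phr1 phl1. BTS was higher by 0.95 ± 0.15 (adjusted p = 5.34e-07), with means of 51.5, 23.7 and 112 CPM in Col-0 and 78.8, 62.1 and 222 CPM in phr1 phl1. OPT3 was higher by 1.05 ± 0.17 (adjusted p = 6.48e-07), with means of 41.1, 27.8 and 67.5 and 65.1, 80.3 and 161 CPM. The means of phr1 phl1 in E join unlike libraries. E1 and E2 held 38.4 and 81.5 CPM of NRAMP4, 148 and 297 CPM of BTS and 79.0 and 242 CPM of OPT3. For each of these 3 genes, phr1 phl1 was above Col-0 in every experiment that held both. ORG1 was higher by 0.98 ± 0.15 (adjusted p = 2.82e-07), NRAMP1 by 0.85 ± 0.17 (adjusted p = 4.97e-05) and BHLH104 by 0.39 ± 0.09 (adjusted p = 0.000281). BHLH115 was lower, with a fold of -0.53 ± 0.14 (adjusted p = 0.00138). The calls of NRAMP4, BTS, OPT3, ORG1, NRAMP1, BHLH104 and BHLH115 remained when each experiment was left out.

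The other 10 calls of phr1 phl1 against Col-0, beside that of FIT, ended when single experiments were left out. FRO3 was higher by 0.64 ± 0.17 (adjusted p = 0.00251) and NAS1 by 1.20 (adjusted p = 0.00266), and both ended without experiment E, where NAS1 moved to 0.61. PYE, 0.65 higher, ended without C or E. IREG2, 0.94 higher, ended without C, and ILR3, 0.25 higher, without C or D. AT3G07720, 0.70 higher, and FRD3, with a fold of -1.37, ended without D. BTSL1, NRAMP3 and BHLH121 were higher by 0.62, 0.45 and 0.28, and each ended in 3 or 4 of the fits that left out 1 experiment. BHLH121 also ended without the 4 libraries that stood apart (adjusted p = 0.114). Adjusted p-values of these 10 genes ran from 0.00251 to 0.0359 with all experiments.

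The calls of phr1 against Col-0 were less stable. BTS was higher by 0.50 ± 0.13 (adjusted p = 0.0029) and FRD3 lower, at -1.25 ± 0.37 (adjusted p = 0.008). NRAMP4, BHLH121, BHLH104, FRO3, OPT3 and ORG1 were higher by 0.30, 0.28, 0.22, 0.44, 0.43 and 0.36, and AHA2 and BHLH115 had folds of -0.32 and -0.33. All 11 calls ended in C, D and E alone, and 2 remained with libraries summed per experiment. Without experiment B 1 call remained and without experiment D 2. Without the 4 libraries that stood apart 6 remained, and FRO3, BHLH115, BHLH121, OPT3 and ORG1 ended, with adjusted p from 0.0528 to 0.101. In phr1 phl1 against phr1, NRAMP4 was higher by 0.58 ± 0.11 (adjusted p = 0.000547), whichever experiment was left out. FRO2 (1.60), NRAMP1 (0.65), OPT3 (0.62), ORG1 (0.61) and IRT1 (1.45) were higher with adjusted p from 0.00876 to 0.0488, and each call ended when experiment D was left out. The IRT1 call also ended without the 4 libraries that stood apart (adjusted p = 0.0503).

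The root markers moved the other way between genotypes. On low Pi with SynCom, 5 of 7 root hair markers and 5 of 7 endodermis markers tested were lower in phr1 phl1 than in Col-0, with medians of -1.66 and -1.74, and 1 of 12 photosynthesis markers was higher. In C, D and E the summed root hair level was 19.7 (7.85 to 278) CPM in Col-0 and 4.02 (2.05 to 93.2) CPM in phr1 phl1, and the endodermis level 58.8 (24.5 to 114) and 19.6 (11.9 to 49.3) CPM. IRT1 and FRO2, which act in the root epidermis, were higher in the phr1 phl1 group, whose root marker medians were lower. Between experiments, IRT1, FRO2 and the root markers moved together. In the Col-0 and phr1 libraries their medians were lower in C and D than in A, B and E. The part of the root markers in these differences was not tested.

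**Figure D5:**
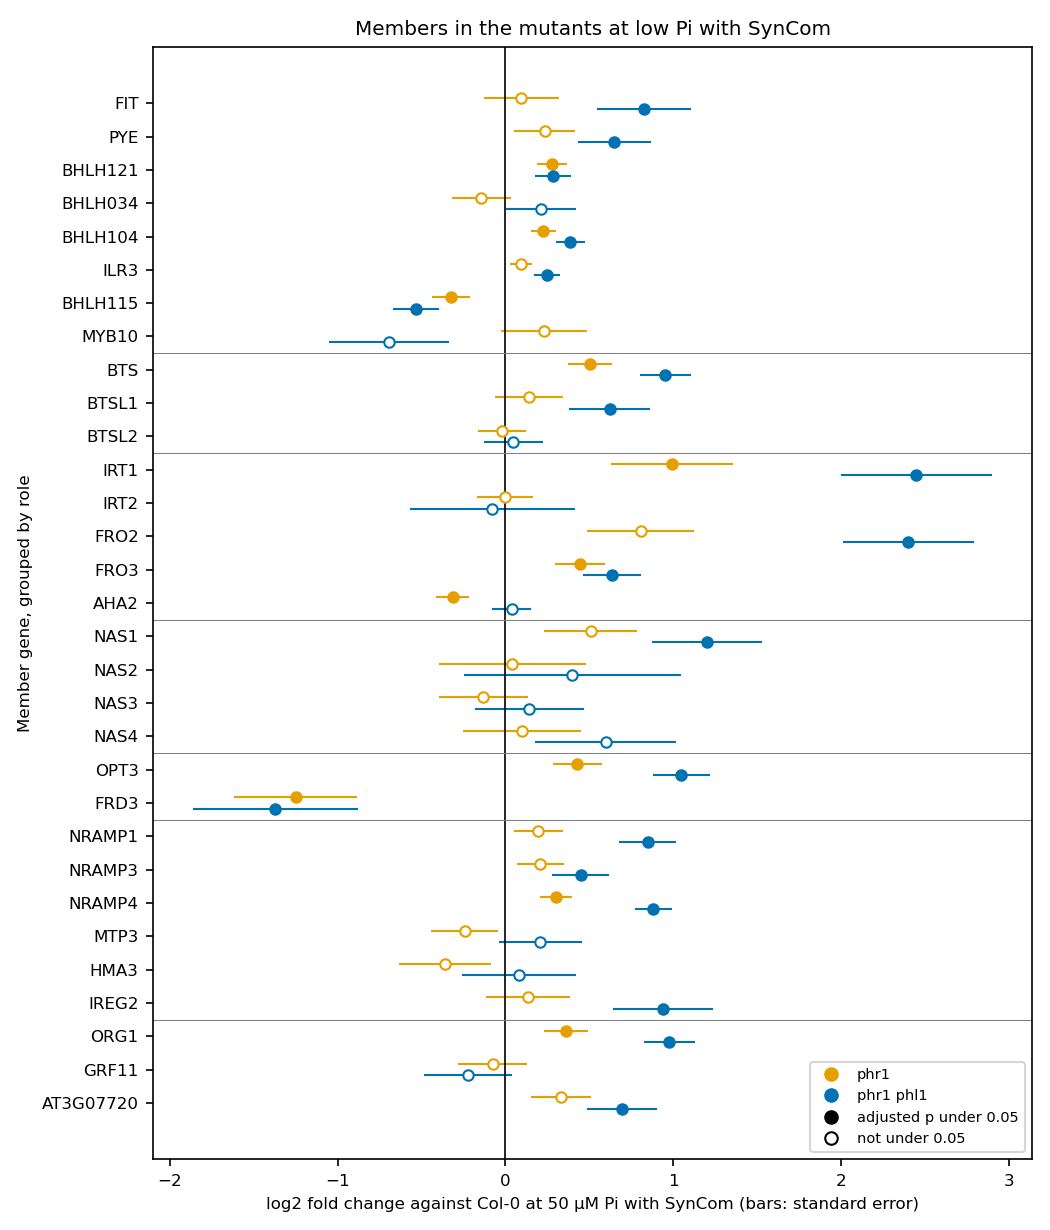
log2 fold changes of the 31 members in phr1 (orange) and phr1 phl1 (blue) against Col-0 on low Pi with SynCom, with standard errors as bars. Filled points have an adjusted p under 0.05. IRT1 and FRO2 lie farthest to the right in phr1 phl1, at 2.45 and 2.40, and FRD3 farthest to the left in both mutants.

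Tests of the difference between genotypes in the response itself called members for phr1 phl1. With SynCom, the Pi effect differed from that in Col-0 for 10 members in phr1 phl1, all toward higher values on low Pi, where 7.81% of all genes were called in that direction and 8.48% in the other. They were IREG2, NRAMP4, BTSL1, ILR3, FRO2, IRT1, NRAMP1, BTS, FIT and BHLH121, with differences from 0.36 for ILR3 to 2.03 for IRT1, and each call ended when 1 or more of the experiments was left out. Leaving out E moved the IREG2 difference from 1.53 to 2.47, and BTS and BHLH121 ended without the 4 libraries that stood apart (adjusted p = 0.0565 and 0.0826). For phr1 the only such member was IRT1, by 1.85 ± 0.53 (adjusted p = 0.0406), against 0.967% of all genes in that direction and 1.7% in the other, and it ended without A, B, C or D (adjusted p from 0.0983 to 0.201) and without the 4 libraries that stood apart (adjusted p = 0.0542). The SynCom effect on low Pi differed for 9 members in phr1 phl1, 8 of them higher, where 7.4% of all genes were called higher and 8.11% lower. Among these, NRAMP4 (0.77 ± 0.15 (adjusted p = 0.000305)), ORG1 (1.04 ± 0.22 (adjusted p = 0.000476)), BTS (0.99 ± 0.21 (adjusted p = 0.000789)) and IRT1 remained whichever experiment was left out. For phr1, edgeR called 0 members in that test (2.73% of all genes), with 7 of 31 at an unadjusted p under 0.05 beside 19.7% of all genes, and DESeq2 called none. On high Pi the genotype tests of the SynCom effect called 0 members, with 0% of all genes called and none by DESeq2. At an unadjusted p under 0.05 stood 2 members for phr1 and 4 for phr1 phl1, beside 3.04% and 4.65% of all genes.

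Promoter sequence was examined because many members were higher together in the mutants on low Pi with SynCom. The 300 bases before the annotated gene start were read for all 31 members from RefSeq's TAIR10.1 genome and joined to the counts by locus identifier, since the submitters' processing notes name TAIR10. They were searched on both strands for the G-box CACGTG, a site of bHLH proteins, and for P1BS in its palindromic form GNATATNC, the site that PHR1 is known to bind. The 2 motifs do not overlap in any window shown. A G-box was present in 2 of 31 members (6.45%) and in 1945 of 27443 windows of all genes (7.09%). P1BS was present in 1 member (3.23%) and in 1785 of all windows (6.5%). The 3 windows with a motif follow, 5′ to 3′ on the strand of the gene, with the motif in capitals: P1BS in BHLH104 (chr4:8299097-8299396, plus strand), 3 G-boxes in BTS (chr3:6273666-6273965, plus strand) and 1 G-box in OPT3 (chr4:9250344-9250643, minus strand).
BHLH104: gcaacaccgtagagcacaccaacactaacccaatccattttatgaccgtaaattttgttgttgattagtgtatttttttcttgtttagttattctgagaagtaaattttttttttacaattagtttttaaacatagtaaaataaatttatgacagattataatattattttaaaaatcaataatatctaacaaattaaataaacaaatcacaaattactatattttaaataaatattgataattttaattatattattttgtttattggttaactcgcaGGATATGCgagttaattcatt
BTS: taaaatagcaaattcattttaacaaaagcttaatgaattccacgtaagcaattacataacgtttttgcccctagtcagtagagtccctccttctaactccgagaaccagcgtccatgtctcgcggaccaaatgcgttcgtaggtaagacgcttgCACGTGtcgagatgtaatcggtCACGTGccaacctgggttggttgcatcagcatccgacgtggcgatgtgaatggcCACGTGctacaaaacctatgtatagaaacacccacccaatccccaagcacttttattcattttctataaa
OPT3: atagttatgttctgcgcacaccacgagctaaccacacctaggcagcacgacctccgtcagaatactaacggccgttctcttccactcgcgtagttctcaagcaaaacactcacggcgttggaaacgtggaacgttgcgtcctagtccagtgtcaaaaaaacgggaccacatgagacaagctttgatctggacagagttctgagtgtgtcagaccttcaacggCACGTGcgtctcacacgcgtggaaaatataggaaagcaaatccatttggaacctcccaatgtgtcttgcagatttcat
These matches describe letters in the sequence. With 2 members holding a G-box and 1 holding P1BS, the counts are too small to set the members' shares apart from those of all genes. None of the other members, IRT1 and FRO2 among them, held either motif in this window. BTS, OPT3 and BHLH104 were called higher in both mutants on low Pi with SynCom, as were members without either motif.

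Other genes of the pathway, from lists drawn up by function, were set beside the members. The subgroup Ib bHLH genes and the IMA peptides, which pair with FIT or signal iron deficiency, were all higher in phr1 phl1 than in Col-0 on low Pi with SynCom: 7 of 7 were called, with a median of 3.26, and IMA3 was higher by 4.11 ± 0.67 (adjusted p = 7.84e-07), IMA2 by 4.07 ± 0.69 (adjusted p = 1.91e-06) and BHLH038 by 3.21 ± 0.56 (adjusted p = 3.16e-06). In phr1 against Col-0 their median was 0.64. With SynCom on low Pi, 5 of 7 rose in phr1 phl1 and 5 of 7 in phr1, and the medians in phr1 phl1, phr1 and Col-0 were 3.41, 2.09 and 0.47.

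Of the 6 coumarin genes tested, which make and release phenolics that mobilise iron, 3 were higher and 2 lower in phr1 phl1 than in Col-0 on low Pi with SynCom. CYP82C4, the last enzyme of sideretin synthesis, was higher by 8.27 ± 1.01 (adjusted p = 7.30e-10), S8H by 2.51 ± 0.64 (adjusted p = 0.00121) and the exporter ABCG37 by 1.16 ± 0.23 (adjusted p = 5.11e-05). In Col-0 SynCom lowered CYP82C4, with folds of -4.22 on high and -8.05 on low Pi (adjusted p = 2.90e-09 and 1.90e-12). Of 6 iron storage genes tested, 1 was higher and 2 lower in phr1 phl1 than in Col-0 on low Pi with SynCom: VTL5, a vacuolar iron transporter-like gene, at 1.61, VTL1 at -1.12 and the ferritin gene FER2 at -1.36. VTL5 fell with SynCom in all 3 genotypes on low Pi, with folds of -2.48, -1.63 and -1.17. Of 11 other metal transport genes, 2 were higher and 2 lower in phr1 phl1, with HMA2 at -1.15 and YSL2 at -1.24. Of 6 zinc deficiency transporters, 1 was higher and 1 lower, and ZIP5 rose with SynCom on low Pi in each genotype, by 1.59 (Col-0), 1.57 (phr1) and 2.31 (phr1 phl1). On low against high Pi with SynCom in Col-0 the same lists gave 0 higher and 1 lower of 7 for subgroup Ib and IMA, 2 and 1 of 6 for coumarins, 3 and 1 of 6 for storage, 2 and 6 of 11 for other transport and 3 and 1 of 6 for zinc.

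Several members overlap neighbours or share stretches of sequence with relatives. Reads themselves were not examined. The libraries do not mark strand, and 8 members overlap a gene on the opposite strand, by 19 to 630 bases in TAIR10.1. The longest overlaps are those of ILR3 with AT5G08235 (630 bases), BTSL1 with AT1G74750 (471 bases) and MYB10 with PIE1 (340 bases), so their counts cannot be told apart there. Identical stretches with another gene reached 59 bases for AHA2 and HA1, 43 bases for NRAMP3 and AT2G07885 and 41 bases for FRO3 and FRO1. They reached 41 bases for NRAMP1 and NRAMP6, 38 bases for BTSL1 and BTSL2 and 35 bases for IRT1 and ZIP10. IRT2, FRO2, FIT, BTS, OPT3, FRD3 and NRAMP4 shared no stretch of 28 bases or more.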

How the data were processed

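Whole-seedling RNA was measured in 12 groups of 10 or 6 libraries. Per the labels, polyadenylated RNA was isolated and the libraries do not mark strand. The authors deposited raw read counts per locus, and 0 columns of their table were left unused. Per the submitters' processing notes, HTSeq 0.6.1p1, TopHat2 2.1.1, CASAVA 1.8 and cutadapt 1.3 were used, and the genome build was TAIR10. What each tool did, and its options, was not given in the sources used here.

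Of 27206 loci, 1788 had no count. edgeR 4.0.16 in R 4.3.3 filtered genes by filterByExpr over the 12 groups (18926 left), scaled counts by TMM and fitted 1 coefficient per group and additive terms for the 5 experiments. For the 33 contrasts, quasi-likelihood F tests were called at a Benjamini-Hochberg adjusted p of 0.05 over all genes tested. CPM use the filtered library totals times the TMM factor. Standard errors are the size of the fold over the root of F and are uncertain for folds near 0 and for genes with few counts. The model was tested on simulated counts for low against high Pi with SynCom in Col-0. The simulation gave all genes the same spread and smaller differences between experiments than those of the uptake genes. It therefore does not show how the tests perform for those genes.

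After group means were subtracted, libraries of 1 experiment had a median correlation of 0.506 and libraries of different experiments one of -0.29. For libraries of 1 experiment that also shared a replicate number the median, after experiment means were removed, was -0.042, and for other numbers -0.0676, so experiment pairs the libraries and the numbers do not. Among 52 pairs of 1 group and experiment, chi-square per degree of freedom was at least 1.916, so none was counted as a duplicate.

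The members and lists were chosen with earlier results of these data known. In each comparison every member past the threshold was named, and levels in every group were kept for FIT, IRT1, FRO2 and the 10 members with the most calls over the 12 Pi and SynCom contrasts. Alternatives were DESeq2 1.42.0, RLE scaling, no filter on low counts, a replicate block, no experiment term, libraries summed per experiment, experiments C, D and E alone, and each experiment left out. A fit without the 4 libraries that stood apart and a robust fit were also run, the latter chosen after seeing the data. Promoter windows and gene overlaps came from RefSeq's TAIR10.1.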

Additional observations from a re-analysis of the deposited data

Results flagged for a closer look

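Sets of 1 gene in 1 group, 156 in all, were examined for a library far from the rest, by comparing its gap to the nearest library with the range of the group. The gap was too wide in 13 sets. The limits used would flag about 1 in 20 sets of independent, normally distributed values. CPM pooled over these experiments are skewed and some sets are mostly 0, so that rate does not apply here. All 13 were at the high end. For IRT1 in Col-0 on low Pi with SynCom, library B1 had 35.9 CPM beside 18.9 CPM in the nearest (gap over range 0.480). In phr1 on high Pi with SynCom, library E2 had 52.6 CPM beside 24.9 CPM in the nearest (gap over range 0.534). For FRO2 in phr1 on low Pi with SynCom, library E1 had 119.7 CPM beside 51.4 CPM in the nearest (gap over range 0.576). For NAS2 in phr1 phl1 on high Pi with SynCom, library E1 had 0.438 CPM beside 0 CPM in the nearest (gap over range 1). In phr1 phl1 on low Pi with SynCom, library E2 had 1.87 CPM beside 0.587 CPM in the nearest (gap over range 0.686). For AT3G07720 in phr1 on low Pi with SynCom, library E1 had 92.0 CPM beside 42.5 CPM in the nearest (gap over range 0.674). For NAS3 in Col-0 on high Pi with SynCom, library A2 had 33.0 CPM beside 16.7 CPM in the nearest (gap over range 0.501). In phr1 on low Pi without bacteria, library A2 had 37.4 CPM beside 19.9 CPM in the nearest (gap over range 0.497). In phr1 phl1 on low Pi without bacteria, library E2 had 16.1 CPM beside 7.00 CPM in the nearest (gap over range 0.758). In phr1 phl1 on low Pi with SynCom, library D2 had 37.1 CPM beside 16.2 CPM in the nearest (gap over range 0.679). For FRD3 in Col-0 on high Pi with SynCom, library E1 had 3.56 CPM beside 1.39 CPM in the nearest (gap over range 0.608). For GRF11 in phr1 on high Pi with SynCom, library B1 had 30.0 CPM beside 21.1 CPM in the nearest (gap over range 0.534). For NRAMP1 in phr1 on low Pi with SynCom, library B2 had 137 CPM beside 92.7 CPM in the nearest (gap over range 0.498).

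The other results are differences in response between conditions or genotypes, given on the log2 scale with edgeR's adjusted p. In Col-0, the Pi effect with SynCom less that without was -0.78 for GRF11 (adjusted p = 0.0256), 0.72 for BHLH115 (0.000372), 2.49 for FRD3 (0.000342), -0.80 for BTS (0.000521), -0.81 for BHLH121 (9.07e-07) and -0.64 for ORG1 (0.00547). Calls ended for GRF11 without B, C or D and ORG1 without D. In phr1 this difference was 1.36 for FRO2 (adjusted p = 0.0473), 2.003 for FRD3 (0.038), -0.48 for BHLH121 (0.0117) and 0.32 for ILR3 (0.0239). Calls ended for FRO2 whichever experiment was left out, FRD3 without A, C or D, BHLH121 without C or D and ILR3 without A, B, C or D. In phr1 phl1 it was 2.23 for FRO2 (adjusted p = 0.0327), 2.29 for IRT1 (0.05) and 0.51 for ILR3 (0.0115). Calls ended for FRO2 without C, D or E, IRT1 whichever experiment was left out and ILR3 without C or D. Leaving out E moved FRO2 to 1.60. IRT1 also ended without the 4 libraries that stood apart (adjusted p = 0.0604). The Pi effect with SynCom in phr1 less that in Col-0 was 1.85 for IRT1 (adjusted p = 0.0406). The call ended without A, B, C or D. The same difference for phr1 phl1 was 1.82 for FRO2 (adjusted p = 0.0157), 1.19 for BTSL1 (0.00952), 0.72 for NRAMP1 (0.0307), 1.09 for FIT (0.0478), 0.60 for BTS (0.0397), 0.41 for BHLH121 (0.0484), 2.03 for IRT1 (0.019), 1.53 for IREG2 (0.00774), 0.36 for ILR3 (0.0138) and 0.55 for NRAMP4 (0.00925). Calls ended for FRO2 without B, C or D, BTSL1 and IREG2 without C, NRAMP1 without A, B, C or D, FIT whichever experiment was left out, BTS without A, D or E, BHLH121 without A, B or C, IRT1 without C, D or E, ILR3 without C or D and NRAMP4 without D. Leaving out E moved IREG2 to 2.47. The SynCom effect on low Pi in phr1 phl1 less that in Col-0 was 2.21 for FRO2 (adjusted p = 0.00484), -0.58 for BHLH115 (0.0272), 0.99 for BTS (0.000789), 0.38 for BHLH104 (0.0258), 0.90 for OPT3 (0.00623), 2.64 for IRT1 (0.00268), 1.26 for NAS1 (0.0435), 1.04 for ORG1 (0.000476) and 0.77 for NRAMP4 (0.000305). Calls ended for FRO2 without C or D, BHLH115 without A, C or D, BHLH104 without A, B, C or D, OPT3 without D and NAS1 without A, B, D or E. Leaving out C moved NAS1 to 1.91.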

How the results depend on the processing

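Of 166 calls of single members, 159 kept direction and threshold by DESeq2, 161 with RLE scaling, 158 with no filter on low counts, 162 by the robust fit and 151 without the 4 libraries that stood apart. With no experiment term 51 remained and with libraries summed per experiment 105. In C, D and E alone 92 of 164 remained. Leaving out 1 experiment kept 126 (A), 122 (B), 103 (C), 93 (D) or 144 (E). No call reversed under these alternatives. The replicate block of experiment and number kept 161 calls. It raised the count for genotype by Pi in phr1 from 1 to 2 and moved no other count by over 1.5 times. Numbers within an experiment pair nothing in the labels.

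The counts of members called moved by over 1.5 times as follows. For low against high Pi with SynCom, phr1, 12 became 3 with no experiment term, 7 in C, D and E and 5 to 11 with 1 experiment left out. For low against high Pi with SynCom, phr1 phl1, 12 became 3 with no experiment term and 2 to 18 with 1 experiment left out. For SynCom against no bacteria at high Pi, Col-0, 4 became 1 with no experiment term. For SynCom against no bacteria at high Pi, phr1, 8 became 3 with no experiment term, 2 in C, D and E and 5 to 8 with 1 experiment left out. For SynCom against no bacteria at high Pi, phr1 phl1, 4 became 1 with no experiment term, 1 with summed libraries and 2 to 4 with 1 experiment left out. For SynCom against no bacteria at low Pi, Col-0, 17 became 7 with no experiment term and 9 in C, D and E. For SynCom against no bacteria at low Pi, phr1, 12 became 6 with no experiment term and 6 in C, D and E. For SynCom against no bacteria at low Pi, phr1 phl1, 15 became 3 with no experiment term, 9 with summed libraries and 4 to 14 with 1 experiment left out. For Pi by SynCom interaction, Col-0, 6 became 3 in C, D and E. For Pi by SynCom interaction, phr1, 4 became 0 with no experiment term, 0 with summed libraries, 1 in C, D and E and 0 to 6 with 1 experiment left out. For Pi by SynCom interaction, phr1 phl1, 3 became 5 by DESeq2, 0 with no experiment term, 0 with summed libraries and 0 to 4 with 1 experiment left out. For phr1 against Col-0 at low Pi with SynCom, 11 became 1 with no experiment term, 2 with summed libraries, 0 in C, D and E, 7 without the 4 libraries and 1 to 11 with 1 experiment left out. For phr1 phl1 against Col-0 at low Pi with SynCom, 20 became 9 with no experiment term and 13 in C, D and E. For phr1 phl1 against phr1 at low Pi with SynCom, 6 became 0 with no experiment term, 2 with summed libraries and 1 to 6 with 1 experiment left out. For genotype by Pi interaction with SynCom, phr1 against Col-0, 1 became 2 by DESeq2, 2 with the replicate block, 0 with no experiment term, 0 with summed libraries, 0 in C, D and E, 0 without the 4 libraries and 0 to 7 with 1 experiment left out. For genotype by SynCom interaction at low Pi, phr1 against Col-0, 0 became 0 to 7 with 1 experiment left out. For genotype by Pi interaction with SynCom, phr1 phl1 against Col-0, 10 became 0 with no experiment term, 5 with summed libraries, 3 in C, D and E and 3 to 8 with 1 experiment left out. For genotype by SynCom interaction at low Pi, phr1 phl1 against Col-0, 9 became 2 with no experiment term and 4 to 12 with 1 experiment left out. The causes were not tested, beyond the fewer libraries in fits that leave some out.

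Counting intervals were computed for NAS2, IRT2 and FRD3, with medians of a few CPM or less, and the one for IRT2 in phr1 phl1 on low Pi ran from 3.68 to 60.9. The ratios behind these intervals pool libraries over experiments and do not hold experiment fixed. In C and D the medians of IRT1 and FRO2 lay between 1.14 and 1.63 CPM.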
